A study of Mus musculus with 4 samples.

Results

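Mitochondrial ribosomal protein genes were taken as the genes whose symbol in the deposited table is Mrpl or Mrps followed by a number and at most 1 letter, which leaves out pseudogene names. There were 78 such genes among the 36088 genes of the table, 49 named for the large subunit (Mrpl) and 29 named for the small subunit (Mrps). The choice used names only and no measured value. The series holds 4 RNA sequencing libraries of wild-type (WT) mouse male germ cells, sorted from fetal testes that had been kept in culture with CBR-5884 or with its solvent DMSO. There were 2 libraries with CBR-5884 and 2 with DMSO, called biological replicates by the submitters, and the sample titles give day 14. CBR-5884 is described by the submitters as an inhibitor of serine metabolism, and background knowledge places its action on Phgdh, which starts serine synthesis. Doses, culture conditions and the number of testes per library were not given in the sources used here, so the p-values speak only of these libraries. In the test each gene's variance was drawn towards a trend over all genes tested. A p-value therefore does not rest on the spread of that gene alone.

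A mitochondrion carries its own ribosome, which translates the few mRNAs of the mitochondrial genome, all of them for subunits of the respiratory chain and the ATP synthase. Its ribosomal RNAs come from the mitochondrial genome, whereas every one of its proteins is encoded in the nucleus, made in the cytosol and imported. The small subunit decodes the mRNA and the large subunit joins the amino acids and feeds the new chain through an exit tunnel to the inner membrane. Many of its proteins have counterparts in bacterial ribosomes, and the others were added during the evolution of mitochondria. Serine bears on the same system as background, because mitochondrial serine breakdown supplies the folate-bound carbon used to modify certain mitochondrial tRNAs and to formylate the initiator methionyl-tRNA.

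The libraries held an estimated 28100000 and 25300000 reads with CBR-5884 and 24500000 and 22300000 reads with DMSO. Each of the 78 genes was behind an estimated 433 to 6450 reads per library. Correlations of log2(TPM + 1) between libraries were 0.977 to 0.986 over 14920 genes, which are not independent replicates. All 8 germ cell markers, among them Dazl and Ddx4, were present, with a summed level of 2961 and 2879 TPM with CBR-5884 and 2906 and 2850 TPM with DMSO. The 8 markers of Sertoli cells, the somatic cells that surround germ cells in the testis cords, were all above 0. Fshr among them was at traces only, 0.0228 to 0.169 TPM. The 8 summed to 108.2 and 91.2 TPM with CBR-5884 and 132.1 and 73.7 TPM with DMSO. Leydig, peritubular, endothelial and macrophage marker lists each summed to 4.13 to 16.6 TPM, and the mesenchyme list to 42.3 to 50.7 TPM. The defining markers listed at 0 in at least 1 library were Insl3 and Hsd3b1 of Leydig cells and Emcn of endothelial cells. In such bulk samples fewer cells of a type and less RNA per cell cannot be told apart.

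The mitochondrial ribosomal protein genes were expressed in all 4 libraries at levels that spanned 14.6-fold. TPM is a level per unit of transcript length, scaled to the library, so genes can be compared on it. The mean level over the 4 libraries had a median of 91.2 TPM over the 78 genes, against 21.4 TPM over the 14920 tested genes, those averaging 1 TPM or more. All 78 genes passed that filter, all lay in the upper 50% of the tested genes by level, and 56 of them lay in the upper 25%. In each library the 78 genes together took 0.789 to 0.810% of all TPM.

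**Figure D1:**
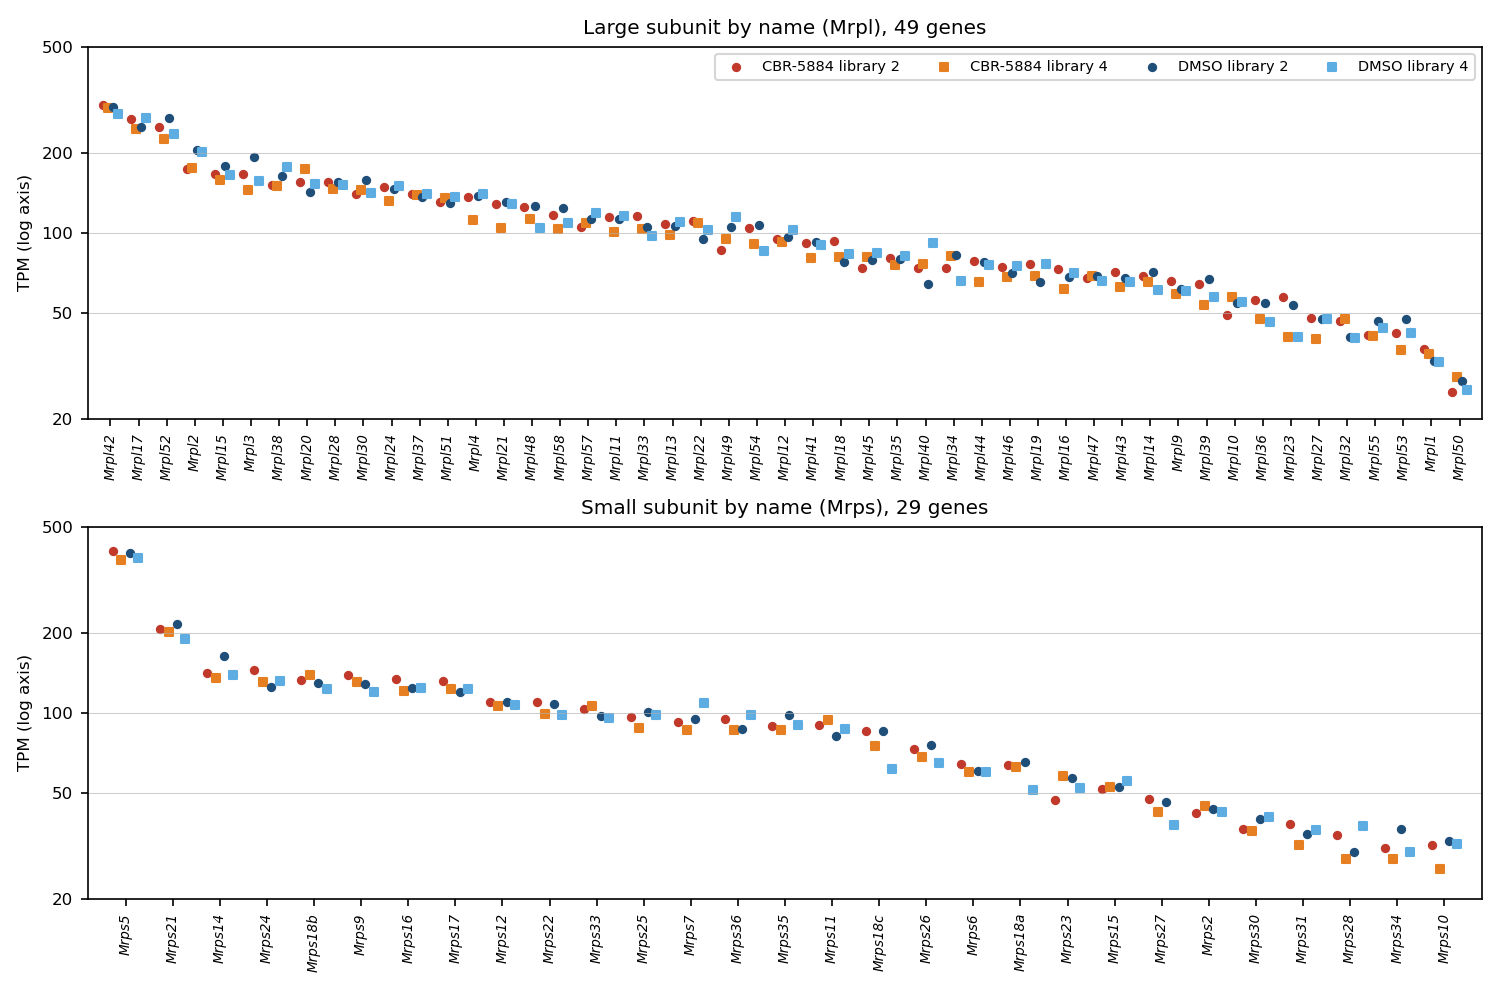
TPM (log axis) of each of the 49 Mrpl and 29 Mrps genes in the 4 libraries, ordered by mean level, with 1 point per library. The 4 points of a gene lie close together beside the 14.6-fold range between genes, with Mrps5 at the top and Mrpl50 at the bottom.

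The highest level of all belonged to Mrps5, the counterpart of a bacterial protein at the mRNA entry of the small subunit, on chromosome 2. It had 405.0 and 377.3 TPM with CBR-5884 and 399.8 and 383.6 TPM with DMSO. It stood well above the next Mrps gene, Mrps21, whose 4 values ran from 189.3 to 216.2 TPM, and the values of the conditions interleaved for both genes. Mrps14, a protein of the head of the small subunit, came after them with 141.3 and 134.9 TPM with CBR-5884 and 164.2 and 138.2 TPM with DMSO.

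In the large subunit the most abundant mRNAs were Mrpl42, Mrpl17 and Mrpl52. Mrpl42, which has no bacterial counterpart, had 302.1 and 294.9 TPM with CBR-5884 and 297.7 and 279.7 TPM with DMSO. Mrpl17, whose bacterial counterpart sits near the tunnel exit, had 267.6 and 245.3 TPM with CBR-5884 and 251.1 and 271.0 TPM with DMSO. Mrpl52 had 249.6 and 224.4 TPM against 269.5 and 235.1 TPM. The values of the conditions overlapped for all 3 genes.

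The lowest levels were those of Mrpl50, Mrpl1 and Mrpl53 in the large subunit and of Mrps10, Mrps34 and Mrps28 in the small subunit. Mrpl53 and Mrps34 share much of their sequence with other genes (84.4% and 73.8% of 31-base words), so their places are uncertain. Mrpl50 had 25.1 and 28.7 TPM with CBR-5884 and 27.7 and 25.6 TPM with DMSO. Mrpl1, named for the bacterial protein of the mobile L1 stalk, had 36.5 and 35.0 TPM with CBR-5884 and 33.0 and 32.7 TPM with DMSO. Both CBR-5884 values of Mrpl1 lay above both DMSO values, while those of Mrpl50 overlapped. The 3 low Mrps genes ranged between 25.9 and 37.5 TPM over the 4 libraries.

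Levels were also set out by descent. The 46 genes with a counterpart had a median level of 96.0 TPM and the 32 without one 89.8 TPM, a split made from textbook assignments and given without a test. Within Mrps the medians were 102.0 TPM over 16 genes with a counterpart and 70.4 TPM over 13 without one. Within Mrpl they were 90 TPM over 30 and 96.9 TPM over 19. The 13 include Mrps18a and Mrps18b, although their relative Mrps18c was counted among the 16. They also include Mrps30 and Mrps36, which, like Mrps18a, are named for the small subunit but found elsewhere. The Mrps medians rest on these assignments.

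The start regions were searched for the letters bound by NRF1, GABPA and YY1, factors known to control nuclear genes for mitochondria. RefSeq start regions on GRCm38.p6, from 250 bases before to 50 bases after each start, were at hand for 69 of the 78 genes, with 75 starts. The NRF1 motif, searched on both strands, stood in 17.3% of these 75 windows, against 9.60% of the windows of other tested genes and 4.60% of all 32851 windows. On both strands as well, the ETS-type motif CCGGAAG, which GABPA can bind, stood in 34.7%, against 16.7% and 8.86%. The YY1 motif AANATGGCG stood in 14.7%, against 4.66% and 2.38%. It holds the letters ATG, and some matches lay after the transcript start, as in Mrpl35 at 23 and Mrpl37 at 26. Such matches can fall on the first codon of the protein, which was not checked. Others lay before the start, as in Mrpl36 at −31. At least 1 of the 3 motifs was found in 42 of the 75 windows (56.0%), against 27.5% and 14.2%. Neither comparison set was matched to the mitochondrial ribosomal protein genes by level. The letters of the ETS and YY1 motifs can overlap, the windows of 1 gene can overlap each other, and a match is a description of letters and not a bound site. By subunit, 56.2% of the 48 Mrpl windows and 55.6% of the 27 Mrps windows held a match.

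The windows below show each motif in genes named in the results, picked as examples, 5′ to 3′ on the gene's strand, with motif matches in capitals. Mrpl32 (chr13:14612988-14613287, minus strand), the gene with the largest positive fold change, has an NRF1 match that begins at −87 from the start. Mrpl17 (chr7:105811038-105811337, minus strand), one of the most abundant, has an ETS match at −237 and an NRF1 match at −49. Mrpl42 (chr10:95501900-95502199, minus strand), the most abundant Mrpl gene, has a YY1 match at 27. Mrps12 (chr7:28741772-28742071, minus strand), which starts 172 bases from the mitochondrial seryl-tRNA synthetase gene Sars2 on the other strand, has an ETS match at 1. No match of any of these motifs stood in the windows of Mrpl49 and Mrpl2, the genes with an unadjusted p under 0.05 with limma. Among the highest fold changes of the large subunit, Mrpl20 and Mrpl1 had no match either, whereas Mrpl22 had an ETS match. Mrpl53, among the lowest, also had ETS matches. A link between motif and fold change was not tested.
Mrpl32: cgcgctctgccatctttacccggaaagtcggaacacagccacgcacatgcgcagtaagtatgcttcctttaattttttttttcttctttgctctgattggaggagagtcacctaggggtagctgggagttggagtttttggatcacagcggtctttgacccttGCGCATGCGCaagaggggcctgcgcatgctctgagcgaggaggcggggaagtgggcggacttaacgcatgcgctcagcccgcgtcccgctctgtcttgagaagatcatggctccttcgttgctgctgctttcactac
Mrpl17: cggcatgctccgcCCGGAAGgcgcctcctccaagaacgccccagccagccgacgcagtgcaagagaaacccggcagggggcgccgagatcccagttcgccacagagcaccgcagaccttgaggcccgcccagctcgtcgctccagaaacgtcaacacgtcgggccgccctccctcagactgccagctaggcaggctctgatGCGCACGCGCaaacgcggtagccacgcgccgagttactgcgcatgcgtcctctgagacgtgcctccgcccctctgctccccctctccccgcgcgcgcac
Mrpl42: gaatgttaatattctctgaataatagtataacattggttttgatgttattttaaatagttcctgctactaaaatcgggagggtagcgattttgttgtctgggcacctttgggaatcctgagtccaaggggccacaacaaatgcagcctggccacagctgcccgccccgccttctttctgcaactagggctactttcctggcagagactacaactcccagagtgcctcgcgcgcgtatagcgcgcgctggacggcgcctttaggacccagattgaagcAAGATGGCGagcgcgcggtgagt
Mrps12: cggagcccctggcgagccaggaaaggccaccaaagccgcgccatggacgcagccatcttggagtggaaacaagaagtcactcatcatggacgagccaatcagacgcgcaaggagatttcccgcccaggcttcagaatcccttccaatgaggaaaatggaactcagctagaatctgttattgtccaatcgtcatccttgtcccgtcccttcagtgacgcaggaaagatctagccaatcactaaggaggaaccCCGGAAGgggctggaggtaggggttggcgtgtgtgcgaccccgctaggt

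None of the 78 mitochondrial ribosomal protein genes passed the test between CBR-5884 and DMSO, and their fold changes were small. With limma on log2(TPM + 1) over 14920 genes, 0 of the 78 had an adjusted p under 0.05, where 0% of all tested genes did, and the smallest adjusted p among them was 0.998. An unadjusted p under 0.05 was reached by 2 of 78, both lower with CBR-5884, where 3.66% of all tested genes reached that level, 1.51% higher and 2.15% lower. The log2 fold changes, CBR-5884 over DMSO, ranged from −0.28 to 0.21, and 50 of the 78 were under 0.1 in size. Their 95% intervals had a median half-width of 0.23, and for 76 of the 78 genes the interval lay within −0.5 to 0.5, where 49.9% of all tested genes had such an interval. Among the 9538 tested genes averaging 10 TPM or more, 7313 had such an interval, and the median half-width was 0.28. Both CBR-5884 libraries lay above both DMSO libraries for 8 genes and below them for 14, together 28.2% of the 78, where 13.6% and 17.7% of all tested genes did so, 31.3% in all.

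The median fold change was slightly below 0 for the large subunit and near 0 for the small subunit, and no difference between them was tested. Of the 49 Mrpl genes 19 had a positive and 30 a negative log2 fold change, with a median of −0.05. Of the 29 Mrps genes 15 were positive and 14 negative, with a median of 0.01. Over all 14920 tested genes the median was −0.01 and 52.8% were negative, and over the 9538 averaging 10 TPM or more the median was −0.02. The Mrpl median minus the Mrps median was −0.05. It stayed between −0.06 and −0.03 when each library was left out in turn, but the medians themselves changed sign: the Mrpl median was 0.01 without CBR-5884 library 4, and the Mrps median was −0.03 when either CBR-5884 library 2 or DMSO library 4 was left out. With each library centred on its median the Mrps median was −0.01, and with scaled reads in place of TPM it was 0.00.

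**Figure D2:**
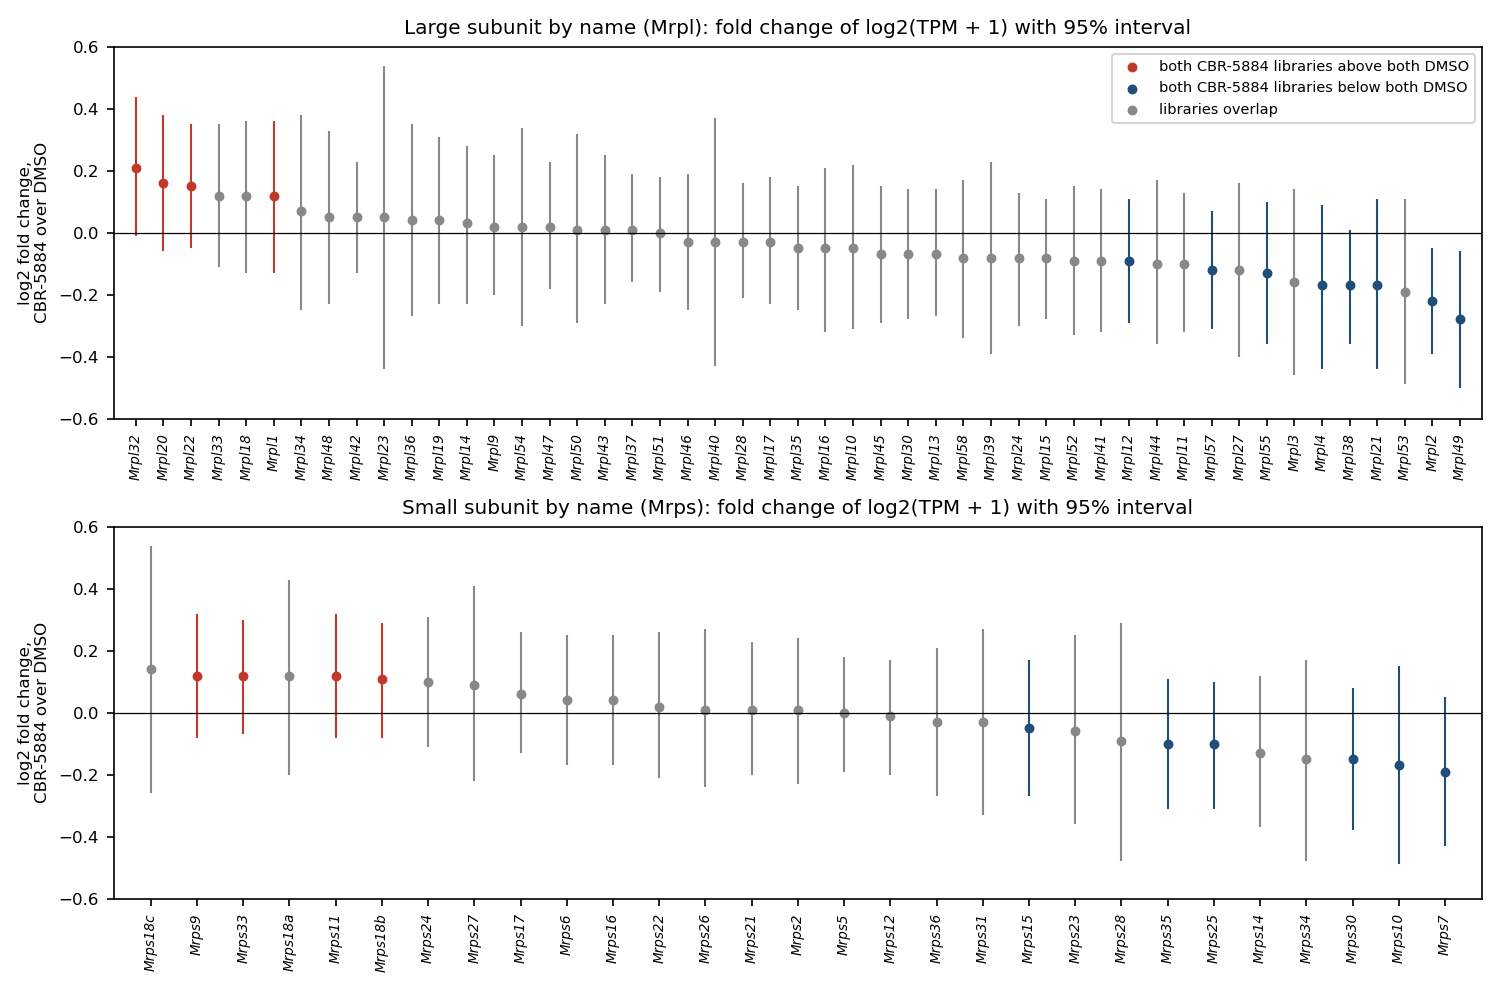
Log2 fold change of TPM + 1, CBR-5884 over DMSO, of the 49 Mrpl and 29 Mrps genes in falling order, with 95% intervals from limma (vertical lines). Colour marks genes whose 2 CBR-5884 libraries both lie above (8 genes) or both below (14 genes) the 2 DMSO libraries, and the intervals of Mrpl2 and Mrpl49 are the ones that leave out 0.

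Mrpl49 and Mrpl2 were the genes with an unadjusted p under 0.05. Mrpl49, a protein of the large subunit with no bacterial counterpart, lies on chromosome 19 from 6053622 to 6057785 on the minus strand (GENCODE M21, GRCm38). It had 86.4 and 94.7 TPM with CBR-5884 and 105.5 and 114.5 TPM with DMSO. Both CBR-5884 values lay below both DMSO values, by a log2 fold change of −0.28 (SE 0.09; limma unadjusted p = 0.0211, adjusted p = 0.998). Its start lies 59 bases from that of Fau, on the other strand, which encodes a protein fused to cytosolic ribosomal protein S30 and had 769.2 and 698.7 TPM with CBR-5884 and 764.0 and 831.8 TPM with DMSO.

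Mrpl2 encodes the counterpart of bacterial L2, which lies close to the peptidyl transferase centre, and sits on chromosome 17 from 46646229 to 46650139 on the plus strand. It had 173.4 and 175.5 TPM with CBR-5884 and 205.6 and 200.9 TPM with DMSO. The libraries of a condition were nearly equal and the groups lay apart, with a log2 fold change of −0.22 (SE 0.07; limma unadjusted p = 0.0200, adjusted p = 0.998). Left-out libraries moved it between −0.24 and −0.20, and Mrpl49 between −0.34 and −0.21. Klc4, a kinesin light chain gene whose start lies 207 bases from that of Mrpl2 on the other strand, had 41.5 and 33.1 TPM with CBR-5884 and 38.5 and 39.6 TPM with DMSO.

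Mrpl38 and Mrpl53 completed the 4 lowest fold changes of the large subunit. Mrpl38, a protein of the central protuberance, had 151.7 and 149.8 TPM with CBR-5884 and 164.0 and 176.3 TPM with DMSO, a log2 fold change of −0.17 (95% interval −0.36 to 0.01). Mrpl53 had 42.1 and 36.1 TPM with CBR-5884 and 47.5 and 42.0 TPM with DMSO, so its groups overlapped. The level of Mrpl53 is uncertain, because 84.4% of its 31-base words also occur in Gm42688, a gene annotated over the same exons and strand.

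At the other end, Mrpl32 had the largest positive log2 fold change of the 78 genes, 0.21 (SE 0.09; 95% interval −0.01 to 0.44). Mrpl32, a bacterial-type protein whose maturation by a mitochondrial protease is known to precede its assembly into the ribosome, had 46.7 and 47.3 TPM with CBR-5884 and 40.5 and 40.3 TPM with DMSO. Its libraries were nearly equal within each condition and the groups did not overlap. The limma adjusted p was 0.998, and its SE draws on the spread of other genes as well as on its own. Mrpl20 had 154.7 and 174.2 TPM with CBR-5884 and 141.9 and 152.7 TPM with DMSO. Mrpl22, whose bacterial counterpart lines the exit tunnel, had 111.1 and 108.8 TPM with CBR-5884 and 95 and 102.8 TPM with DMSO. For Mrpl20, Mrpl22 and Mrpl1 both CBR-5884 libraries again lay above both DMSO libraries, and all 3 intervals held 0.

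The stalk of the large subunit recruits translation factors. Mrpl12, its repeated stalk protein, had 94.7 and 92.0 TPM with CBR-5884 and 96.4 and 102.7 TPM with DMSO, lower in both CBR-5884 libraries by a log2 fold change of −0.09 (95% interval −0.29 to 0.11). Mrpl10, which anchors the stalk, had 48.9 and 57.3 TPM with CBR-5884 and 54.6 and 54.8 TPM with DMSO. Mrpl11, at the stalk base, had 114.3 and 100.3 TPM against 113.0 and 116.0 TPM. All 3 fold changes were negative and none passed the test.

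For Mrpl3, Mrpl24, Mrpl45 and Mrpl44 the values of the conditions overlapped. Mrpl3, the counterpart of a bacterial protein next to the catalytic centre, had 167.0 and 144.8 TPM with CBR-5884 and 192.5 and 157.0 TPM with DMSO. Mrpl24, at the tunnel exit, had 148.4 and 131.2 TPM against 145.6 and 149.9 TPM, and Mrpl45, which faces the inner membrane there, had 73.7 and 81.3 TPM against 79.3 and 83.8 TPM. Mrpl44, which carries a ribonuclease III-like fold, had 78.4 and 65.4 TPM with CBR-5884 and 77.9 and 75.6 TPM with DMSO.

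Mrpl23, another tunnel-exit protein, varied between libraries of both conditions, with 57.3 and 40.7 TPM with CBR-5884 and 53.6 and 40.4 TPM with DMSO. Its pseudogene Mrpl23-ps1, which holds 10.3% of its 31-base words, had 33.0 and 34.6 TPM with CBR-5884 and 17.8 and 41.3 TPM with DMSO. The sum of both was 90.3 and 75.2 TPM with CBR-5884 and 71.5 and 81.7 TPM with DMSO. The SE of the log2 fold change of Mrpl23, 0.20, was the largest of the 78 (95% interval −0.44 to 0.54).

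In the small subunit, Mrps12 and Mrps5 had log2 fold changes near 0. Mrps12, the counterpart of the bacterial protein at the decoding centre, had 109.5 and 106.3 TPM with CBR-5884 and 110.1 and 107.4 TPM with DMSO, a log2 fold change of −0.01 (95% interval −0.20 to 0.17). Sars2, which shares its start region, had 62.2 and 56.7 TPM against 57.7 and 60.6 TPM. Mrps5 had a log2 fold change of −0.00 (95% interval −0.19 to 0.18). The values of Mrps16, Mrps22 and Mrps21 overlapped between the conditions, with log2 fold changes of 0.04, 0.02 and 0.01. MRPS16 and MRPS22 are known from humans, where mutations cause mitochondrial disease.

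The lowest fold changes of the small subunit were those of Mrps7, Mrps10, Mrps30 and Mrps34. Mrps7, an early-binding protein of the head, had 92.4 and 86.1 TPM with CBR-5884 and 94.8 and 108.9 TPM with DMSO, a log2 fold change of −0.19 (95% interval −0.43 to 0.05). Mrps10 had 31.8 and 25.9 TPM with CBR-5884 and 32.8 and 32.0 TPM with DMSO, at −0.17. In both genes the CBR-5884 libraries lay below the DMSO libraries, by a narrow gap between the nearest libraries. Mrps34 had 31.1 and 28.2 TPM against 36.5 and 30.0 TPM and overlapped, and 73.8% of its 31-base words occur in other genes, 56.8% in Mapk8ip3 on the opposite strand.

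The highest fold changes of the small subunit were those of Mrps18c, Mrps9, Mrps33 and Mrps11, between 0.12 and 0.14. Mrps9 had 139.2 and 130.5 TPM with CBR-5884 and 128.2 and 119.4 TPM with DMSO. Mrps33 had 103.3 and 106.0 TPM against 97.2 and 95.3 TPM, and Mrps11 had 89.6 and 93.9 TPM against 81.8 and 86.8 TPM. For these 3 genes both CBR-5884 libraries lay above both DMSO libraries, while those of Mrps18c overlapped. Mrps15 and Mrps35 leaned the other way, with log2 fold changes of −0.05 and −0.10 and both CBR-5884 libraries below both DMSO libraries, for Mrps15 by less than the printed digits show.

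Some names do not match the subunit or complex in which the protein is found. Mrps18a and Mrps30 are known as proteins of the large subunit, and Mrps36 as a component of the 2-oxoglutarate dehydrogenase complex. Mrps30 had 36.4 and 36 TPM with CBR-5884 and 40 and 40.5 TPM with DMSO, tight within each condition and lower with CBR-5884, by a log2 fold change of −0.15 (95% interval −0.38 to 0.08). Mrps18a had 63.5 and 62.3 TPM with CBR-5884 and 65.5 and 51.2 TPM with DMSO, and its relatives Mrps18b and Mrps18c had log2 fold changes of 0.11 and 0.14. Mrps36 had 94.6 and 86.5 TPM against 86.6 and 98.1 TPM. With Mrps18a and Mrps30 counted in the large subunit and Mrps36 left out, the medians were −0.05 over 51 genes and 0.01 over 26 genes, as by name.

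Summed over genes, the Mrpl mRNAs took 5218 and 4912 TPM with CBR-5884 and 5284 and 5161 TPM with DMSO. The Mrps mRNAs took 2866 and 2721 TPM with CBR-5884 and 2843 and 2714 TPM with DMSO. The ratio of the Mrpl sum to the Mrps sum was 1.82 and 1.81 with CBR-5884 and 1.86 and 1.90 with DMSO. Both ratios with CBR-5884 lay below both with DMSO, and 2 against 2 libraries cannot give a two-sided exact permutation p below 0.33. The means over libraries gave a sum with CBR-5884 over DMSO of 0.970 for Mrpl and 1.01 for Mrps.

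Differences between single libraries of a condition were of the size of the fold changes, which compare means of 2 libraries. The median difference in size between the 2 CBR-5884 libraries was 0.13 on the log2 scale and between the 2 DMSO libraries 0.09. The fold change between conditions had a median size of 0.08. Over the 9538 tested genes averaging 10 TPM or more these 3 values were 0.12, 0.12 and 0.08. CBR-5884 library 4 was the lowest of the 4 libraries for 37 of the 78 genes (47.4%), where it was the lowest for 30.5% of the tested genes averaging 10 TPM or more. Of the 78 genes 59 were higher in CBR-5884 library 2 than in CBR-5884 library 4. In DMSO library 2, 47 of the 78 were higher than in DMSO library 4. The same counts were 5141 and 5308 of the 9538 tested genes averaging 10 TPM or more. The total TPM was also the lowest in CBR-5884 library 4, 966761, against 997741 in CBR-5884 library 2 and 1002976 and 998739 with DMSO, and the summed Sertoli markers were higher in library 2 than in library 4 of each condition. The part of these in the fold changes was not tested, but with equal library totals the medians were −0.02 for Mrpl and 0.03 for Mrps.

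**Figure D3:**
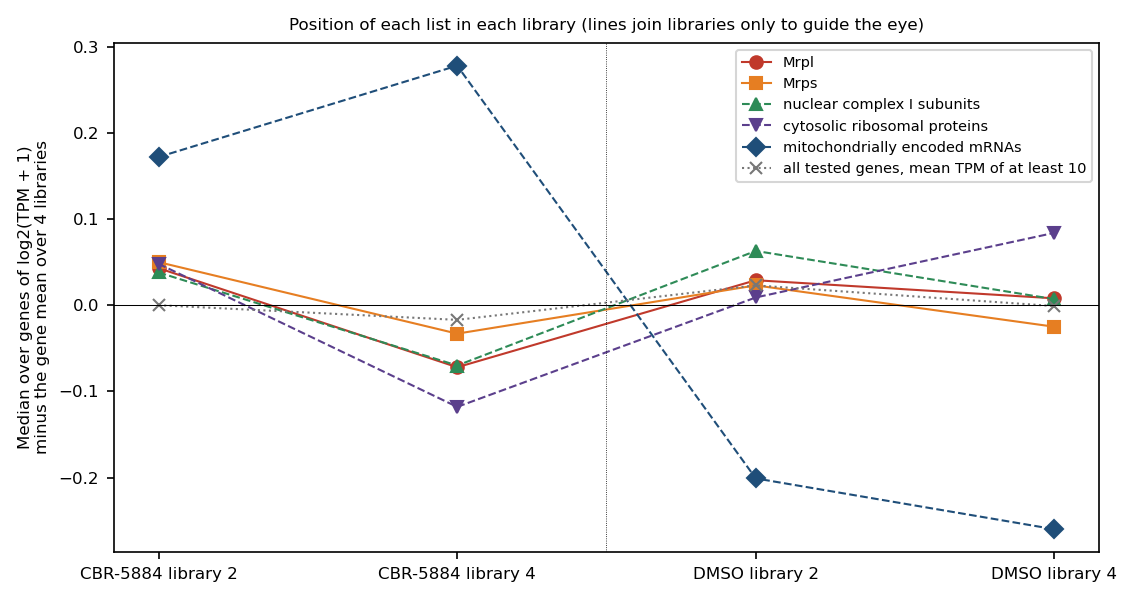
Median over the genes of a list of log2(TPM + 1) in a library minus the gene's mean over the 4 libraries. The medians of Mrpl and Mrps are lowest in CBR-5884 library 4 (−0.07 and −0.03, with Mrps also at −0.03 in DMSO library 4), as are nuclear complex I (−0.07) and cytosolic ribosomal protein genes (−0.12), while mitochondrially encoded mRNAs lie at 0.17 and 0.28 with CBR-5884 and −0.20 and −0.26 with DMSO.

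Some proteins of the same ribosome carry other names. Dap3, Ptcd3, Chchd1, Aurkaip1 and Gadd45gip1 had log2 fold changes from −0.09 (Gadd45gip1) to 0.07 (Ptcd3), and 0 of the 5 had an unadjusted p under 0.05 with limma. Dap3, a GTP-binding protein of the small subunit, was the most abundant of them, with 233.0 and 212.9 TPM with CBR-5884 and 230.4 and 227.9 TPM with DMSO.

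The wider set of mitochondrial translation genes held 0 genes at an adjusted p under 0.05 and a few at an unadjusted one. Among 26 assembly factors 12 fold changes were positive and 14 negative, and the median was −0.01. Of the 26, 3 had an unadjusted p under 0.05 with limma, where 3.66% of all tested genes did. Mterf3, which is needed to assemble the large subunit, had 59.9 and 73.4 TPM with CBR-5884 and 53.5 and 50.5 TPM with DMSO, a log2 fold change of 0.35 (limma unadjusted p = 0.0278, adjusted p = 0.998). Gtpbp10, a GTPase of large-subunit assembly, had 54.5 and 57.6 TPM with CBR-5884 and 70.1 and 65.4 TPM with DMSO, at −0.27. The groups did not overlap for either gene, and they lay in opposite directions. Fastkd2, an RNA-binding protein of large-subunit assembly, was the remaining one, at 0.32, and is named after its values were seen.

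Among the 15 factors of initiation, elongation, termination and mRNA handling, 7 fold changes were positive and 8 negative, with 0 at an unadjusted p under 0.05. They ran from Mtif2, the mitochondrial initiation factor 2, at −0.18 to Taco1, an activator of cytochrome oxidase translation, at 0.09. Of the 17 mitochondrial tRNA synthetases 8 were positive and 9 negative, with a median of −0.01. Of the 17, 1 had an unadjusted p under 0.05 with limma, where 3.66% of all tested genes did. It was Lars2, the leucyl enzyme, with 380.6 and 472.9 TPM with CBR-5884 and 646.9 and 705.9 TPM with DMSO. Its log2 fold change was −0.67 (limma unadjusted p = 0.00128, adjusted p = 0.725). Lars2 averaged 551.6 TPM, where the list had a median level of 53.2 TPM. Sequence shared with other genes was not examined for this list. Hars2, the histidyl enzyme, had the highest fold change, 0.09.

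**Figure D4:**
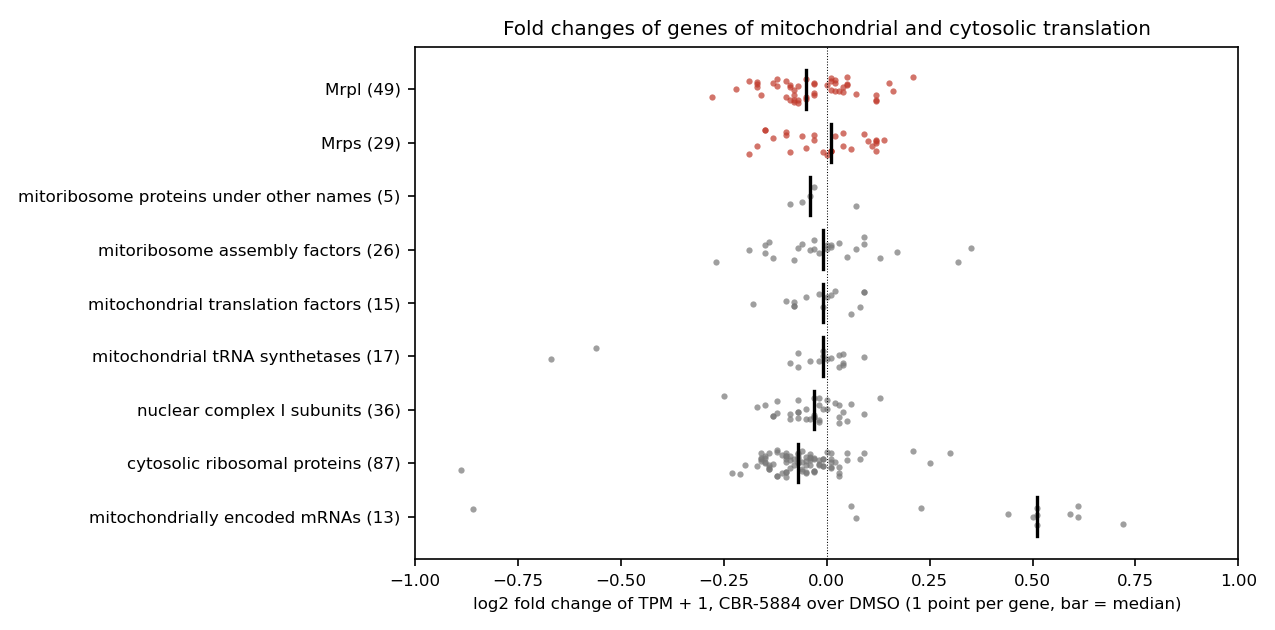
Log2 fold change of TPM + 1, CBR-5884 over DMSO, for each gene of the Mrpl and Mrps groups (red) and of related lists (grey), with the number of genes in brackets and the median as a bar. Medians lie between −0.07 and 0.01 for all lists except the mitochondrially encoded mRNAs, whose median is 0.51.

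The mRNAs that this ribosome translates were measured in the same libraries. The 13 mitochondrially encoded mRNAs had a median log2 fold change of 0.51, from mt-Nd3 at −0.86 to mt-Co2 at 0.72. With limma 0 of 13 passed the threshold while 10 had an unadjusted p under 0.05, where 3.66% of all tested genes did. mt-Co2, a cytochrome oxidase subunit, had 2863.4 and 3252.2 TPM with CBR-5884 and 2145.2 and 1606.3 TPM with DMSO. Nuclear genes for complex I, which the mitochondrial ribosome completes with its own products, had a median of −0.03 over 36 genes and a range from Ndufv3 at −0.25 to Ndufs4 at 0.13. That median became 0.03 when CBR-5884 library 4 was left out, and −0.08 when either CBR-5884 library 2 or DMSO library 4 was. Genes with cytosolic ribosomal protein symbols, which take in paralogs such as Rpl10l and Rpl6l, had a median of −0.07 over 87 genes. Of the 87, 70 were negative, and the list ran from Rpl6l at −0.89 to Rpl5 at 0.30. Rpl6l was at 0.322 to 5.57 TPM and Rpl5 at 17.3 to 27.8 TPM, where the list had a median level of 853.3 TPM. With 1 library left out, the median fold change of the 87 was 0.01 (CBR-5884 library 4), −0.16 (CBR-5884 library 2), −0.11 (DMSO library 2) or −0.04 (DMSO library 4). Many of the 87 have near-identical processed copies, so their levels are uncertain. The lists share the same 4 libraries, and no difference between them was tested.

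Several of the 78 genes share sequence with other genes, which limits how reads could be assigned. Of the 78, 39 had under 5% of their 31-base words in transcripts of other genes and 11 had at least 20%. Over the 26 Mrpl and 13 Mrps genes under 5% the median log2 fold changes were −0.05 and −0.01. Much of the sharing came from genes that overlap on the opposite strand, such as Nr2c2 with 68.9% of the words of Mrps25 and Gcfc2 with 35.8% of those of Mrpl19. Any use of strand in assigning reads was not given in the sources used here.

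Some of the genes start close to another gene that runs the other way. For 19 of the 78 genes (24.4%) a protein-coding gene on the other strand started within 1000 bases. The 2 genes were allowed to overlap by at most 100 bases. The share was 10.8% over 13295 other tested protein-coding genes, which were not matched to the 78 by level. The neighbours of the 19 include Ndufs6, a complex I subunit, beside Mrpl36, and Psma2, a proteasome subunit, beside Mrpl32. Psma2 had 123.1 and 112.7 TPM with CBR-5884 and 112.5 and 107.8 TPM with DMSO, a log2 fold change of 0.10. Mrpl46 and Mrps11, a large and a small subunit gene, overlap each other at their starts on chromosome 7, with log2 fold changes of −0.03 and 0.12.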

How the data were processed

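RNA from 4 libraries was sequenced. The submitters' processing notes name fastp, kallisto and mm10, with versions not given in the sources used here. A gene's value recurs on every transcript line of the deposited table and was taken once per library (36088 genes). Per the file headers it holds scaled reads per base and TPM. Both deposited measures were treated as signal values, and TPM summed to 966761 to 1002976 per library. Read numbers were estimated from the step of low scaled reads in genes with 1 transcript; 33.0 to 36.1% of low values were whole multiples of it within 0.05, so whole reads could not be recovered and no count test was run.

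All 14920 genes averaging 1 TPM or more were fitted with limma 3.58.1 (R 4.3.3, eBayes with trend, two-sided) on log2(TPM + 1) with no covariate, with Benjamini-Hochberg adjustment over all of them and a threshold of 0.05. Fold changes on that scale understate changes of low genes. The table numbers libraries 2 and 4, the labels 1 and 2, so the condition of a library is certain, its labelled replicate is not, and libraries are called by condition and table number. Positions, overlaps and shared 31-base words come from GENCODE M21 on GRCm38 (mm10), which held 35872 of the genes. The members, lists and rules were chosen with earlier results of these data known. Named genes were those with an unadjusted p under 0.05, the 4 highest and 4 lowest fold changes and the 3 highest and 3 lowest levels per subunit, a panel chosen by role, and the extremes of each related list; Dap3, Fastkd2, Mrpl19, Mrpl36, Mrpl46, Mrps25 and neighbouring genes were named after their values were seen. The head-to-head count, the protein-coding fit and the shared-word alternative were also added after the data were seen. Alternatives changed the pseudocount, filter, scaling, measure, variance estimate, block, libraries and subunit assignment.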

Additional observations from a re-analysis of the deposited data

How the results depend on the processing

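With 2 libraries per condition the precision is set by the spread between libraries, which the fit partly shares across genes. Each of the 78 genes had 433 or more estimated reads. Of the 78 genes 0 were called under any alternative run. Over all genes the robust variance estimate called 1 and the restriction to protein-coding genes, added after the data were seen, called 2. With no filter, 1079 of the larger set of genes tested had an unadjusted p under 0.05. Leaving out each library in turn gave a Mrpl median of −0.09 to 0.01, a Mrps median of −0.03 to 0.05, a Mrpl minus Mrps difference of −0.06 to −0.03, and sums with CBR-5884 over DMSO of 0.941 to 0.999 for Mrpl and 0.979 to 1.03 for Mrps. The same ranges were −0.12 to 0.02 for ribosome proteins under other names, −0.05 to 0.01 for translation factors, −0.05 to 0.02 for tRNA synthetases, −0.04 to −0.01 for assembly factors, −0.08 to 0.03 for nuclear complex I, −0.16 to 0.01 for cytosolic ribosomal proteins and 0.43 to 0.51 for mitochondrially encoded mRNAs. Equal library totals moved the translation factor median to 0.02; the cause was not tested. In these fits the lone library of a condition is assumed to vary like the others. Leaving out DMSO library 4 changed the sign of 22 of the 78 fold changes, the other libraries 9 to 19, equal totals 5 and median-centring 4. Apart from these, the settings kept the medians within the spread between libraries.

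The replicate block on the table's library number is only a shared number, since the labels do not say that it pairs cultures; deviations of the libraries numbered 2 correlated at 0.20 over 14920 genes. With the replicate block 0 of the 78 genes and 0 of 14920 were called, 797 genes had an unadjusted p under 0.05, and the medians were −0.05 for Mrpl and 0.01 for Mrps, as without it.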
